A study of Drosophila melanogaster with 12 samples.

Results

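The genes described here encode structural proteins of the cuticle, the outer covering of the fly. They were taken from the deposited tables by symbol, as those that begin with Cpr and a digit, Ccp84A, Lcp and a digit, Twdl, or Edg and a digit, together with Pcp, Acp1 and Acp65Aa. This gave 123 of the 16995 genes in the tables. The rule reads symbols only. There are 70 Cpr genes, 25 Twdl genes, 15 Lcp genes, 7 Ccp84A genes, 4 Edg and Pcp genes and 2 Acp genes.

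Insect cuticle is a layered material of chitin fibres held in a matrix of proteins, which epidermal cells secrete before and after each moult. Most of the proteins belong to the family that shares the Rebers-Riddiford domain, a stretch that binds chitin. Each stage of the fly lays down a cuticle of its own, so that larva, pupa and adult use partly different members of the family, and synthesis of the adult layers goes on for some days after eclosion. The proteins are then hardened and coloured by enzymes that cross-link them.

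RNA-Seq was performed on whole flies that were 1 day old, with 10 flies in each sample and 4 samples in each of 3 groups. Ub6-GG flies expressed a linear chain of ubiquitins that carries a C-terminal di-glycine and can be conjugated onto other proteins, Ub6-Stop flies expressed a chain without that motif, and Control flies carried no chain on the same genetic background. All groups were heterozygous for sqh-Gal4, a driver with the expression pattern of spaghetti squash (non-muscle myosin light chain) that is active in all tissues, and the labels give Attp40 as the insertion site throughout. Crosses were kept at 25 °C, and the labels give no sex.

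One measured value per gene was used, the authors' mean log2 CPM (CPM sets the reads of a gene against the size of its library) over all 12 libraries of the 3 groups. It is a pooled value with no spread, so no group, replicate or sample can be set against another here, and every level below belongs to Ub6-GG, Ub6-Stop and Control flies together. Reads came from the 3′ ends of polyadenylated transcripts, so a long transcript gives no more of them than a short one, and levels of different genes are compared without division by length.

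The depth can be read from the low genes. The lowest value, 0.25 log2 CPM, is shared by 2186 genes with no read, which sets the average library at 1684420 reads, and above it come 12 separate levels for genes with 1 read, one for each library. These levels gave effective library sizes, as scaled by the authors, from 1055230 to 2366710 reads (median 1680810), with no label to tell which library is which. In a library of average size 1 read is 0.594 CPM. A gene with 0 reads in all 12 libraries may still be present at up to 0.148 CPM, the level of 3 reads over all libraries. Such limits and the intervals below cover counting error only. Of all reads, 8.89% were ambiguous between genes and 5.31% fell in no annotated gene.

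Markers of the whole adult fly were present. Myosin heavy chain (Mhc) was at 11.65 log2 CPM, the rhodopsin gene ninaE at 7.90, the yolk protein gene Yp1 at 10.87 and the seminal sex peptide gene SP at 9.62, so that products of both sexes were seen. Among larval products, the salivary glue gene Sgs3 had no read. Lsp1beta, a storage protein of the larval fat body, was at 10.19 log2 CPM, close to Cpr49Ae, the next to highest of the cuticle genes.

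Structural cuticle protein genes covered nearly the whole range of expression in these flies. Acp65Aa, an adult cuticle protein, was the highest at 11.55 log2 CPM or 5051 reads per library, which placed it at rank 35 among all genes. At the other end, 27 of the 123 genes (22.0%) had no read in any library, against 12.9% of all genes and 8.20% of protein-coding genes, the class to which every member belongs. Another 15 had 1 read, 6 had 2 and 5 had 3 over all 12 libraries. The median cuticle gene was at 0.61 log2 CPM, against 2.64 for all genes and 3.25 for protein-coding genes. No test of this difference was run, and the members are not a random draw of genes. In RNA of whole flies, fewer cells that make a transcript and less of it per cell cannot be told apart.

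At least 1 read per library was recovered for 53 members (43.1%), against 71.6% of all genes and 81.6% of protein-coding genes. A level of at least 10 reads was reached by 26 members and at least 100 reads by 12. The share in the highest class was 9.76% of the cuticle genes and 11.7% of all genes. Of the 13848 protein-coding genes, 7870 had at least 10 reads per library and 1952 at least 100. In percentage points the shares differed most in the class from 10 to 100 reads, with 11.4% of the cuticle genes and 35.7% of all genes.

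**Figure D1:**
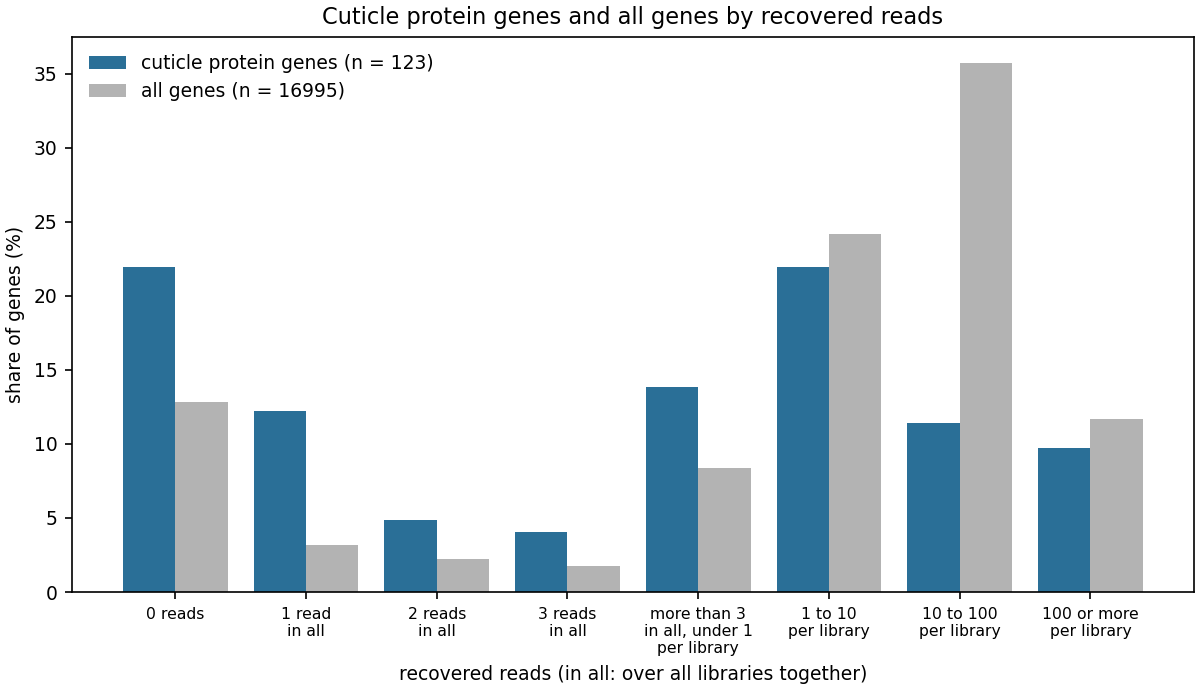
Share of genes (%) in 8 classes of recovered reads, for the 123 cuticle protein genes (dark bars) and all 16995 genes (grey bars), with the lower classes counted over all 12 libraries together. Cuticle genes hold larger shares than all genes in the 5 classes under 1 read per library, such as 22.0% against 12.9% with no read, and a smaller share from 10 to 100 reads per library.

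Few genes carried most of the cuticle message. The 123 genes together gave 10293 reads per library, 0.708% of the reads assigned to genes (95% Wilson interval 0.704% to 0.712%). Acp65Aa alone gave 49.1% of these reads. With Cpr49Ae and Cpr100A the share was 76.1%, and the 10 highest members gave 92.7%.

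Among the genes with adult names, the 2 Acp genes stood far apart. Acp65Aa had 5051 reads per library, whereas Acp1, also named as an adult cuticle protein, had 2.47 reads per library and 1.41 log2 CPM. Acp65Aa encodes a short protein of 105 codons. Its 95% counting interval over all libraries, 60134 to 61101 reads, is narrow, yet the spread between samples is not known.

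The Cpr genes, named for the Rebers-Riddiford domain and numbered by their place on the chromosome map, made up most of the higher members. Cpr49Ae followed Acp65Aa with 1981 reads per library (10.20 log2 CPM, rank 137 among all genes), and Cpr100A had 798 reads (8.89 log2 CPM). Cpr62Bc was at 8.02 log2 CPM, Cpr97Eb at 7.74 and Cpr72Ec at 7.22. Each step down this order was larger than the counting error. Acp65Aa had 2.55 times the reads of Cpr49Ae, which in turn had 2.48 times those of Cpr100A.

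Cpr49Ab was at 6.91 log2 CPM with 199.9 reads per library. Cpr50Cb and Cpr65Au came next at 6.68 and 6.67, and their counting intervals (1967 to 2146 reads and 1946 to 2123 reads over all libraries) overlapped. Cpr97Ea, Cpr67B and Cpr92F had 125.2, 115 and 113.6 reads per library, and the intervals of neighbours in this order overlapped as well. These 12 genes, Acp65Aa and 11 Cpr genes, are the members with at least 100 reads per library. Among all genes, the 10 highest lay between percentiles 90.3 (Cpr97Ea) and 99.8 (Acp65Aa), and Cpr67B and Cpr92F were at 89.6 and 89.5.

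Of the 70 Cpr genes, 36 had at least 1 read per library and 34 did not. Their median was 0.91 log2 CPM. In the middle range Cpr49Ah had 60.4 reads per library, Cpr49Ac 48.3, Cpr47Ef 38.0, Cpr62Bb 34.9 and Cpr76Bd 27.5. Cpr51A was at 3.83 log2 CPM, Cpr64Aa at 3.54 and Cpr11B at 3.30. Cpr47Ee, Cpr49Ag, Cpr92A and Cpr62Ba had 13.2, 12.6, 11.9 and 10.02 reads per library, the last of the Cpr genes above 10. Cpr60D, Cpr64Ac, Cpr47Ea and Cpr73D followed at 2.81, 2.76, 2.70 and 2.70 log2 CPM. All Cpr genes below Cpr11B with at least 1 read per library lay between 0.85 (Cpr47Ed) and 3.17 log2 CPM (Cpr47Ee).

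No read was recovered for 12 Cpr genes, namely Cpr5C, Cpr12A, Cpr23B, Cpr35B, Cpr47Eg, Cpr49Ad, Cpr57A, Cpr65Ax1, Cpr65Ax2, Cpr65Ay, Cpr67Fa1 and Cpr78Cb. At this depth they cannot be said to be absent.

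**Figure D2:**
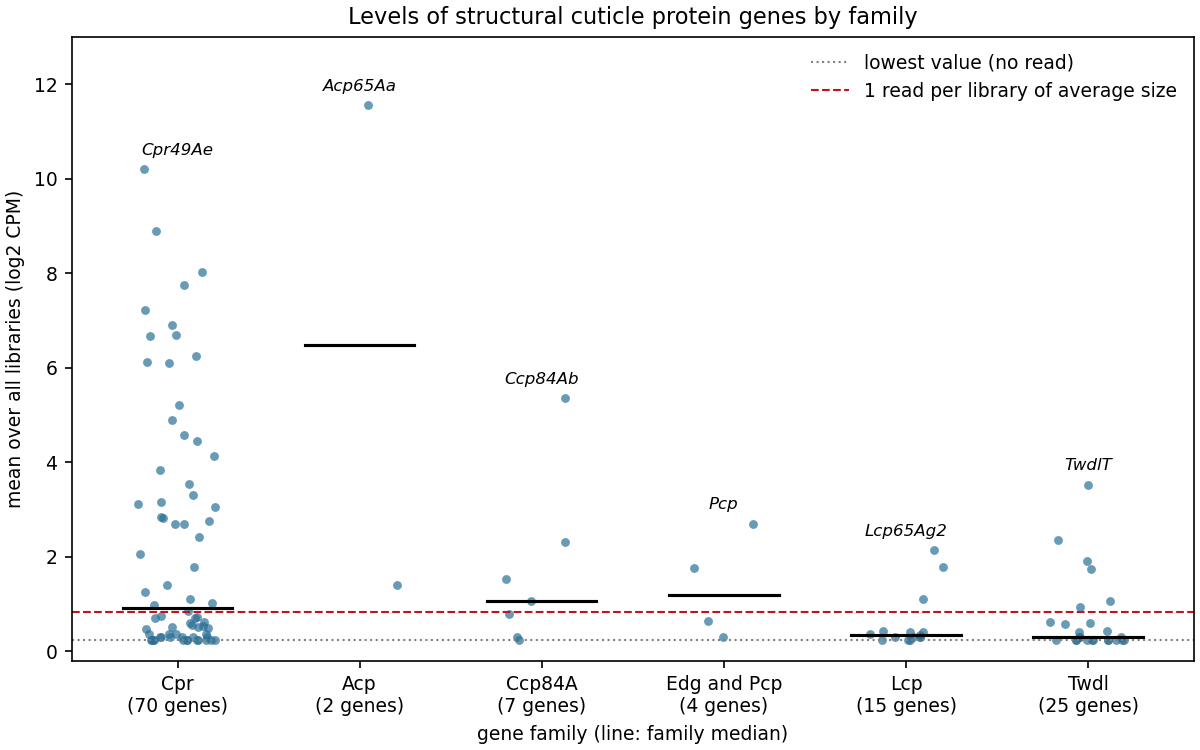
Mean level over all libraries (log2 CPM) of each of the 123 genes, by family, with a line at the family median. The dotted line is the lowest value, that of genes with no read, and the dashed line is 1 read per library. Acp65Aa (11.55) and Cpr49Ae (10.20) stand at the top, while the medians of the Lcp (0.36) and Twdl (0.31) families lie close to the lowest value.

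**Figure D3:**
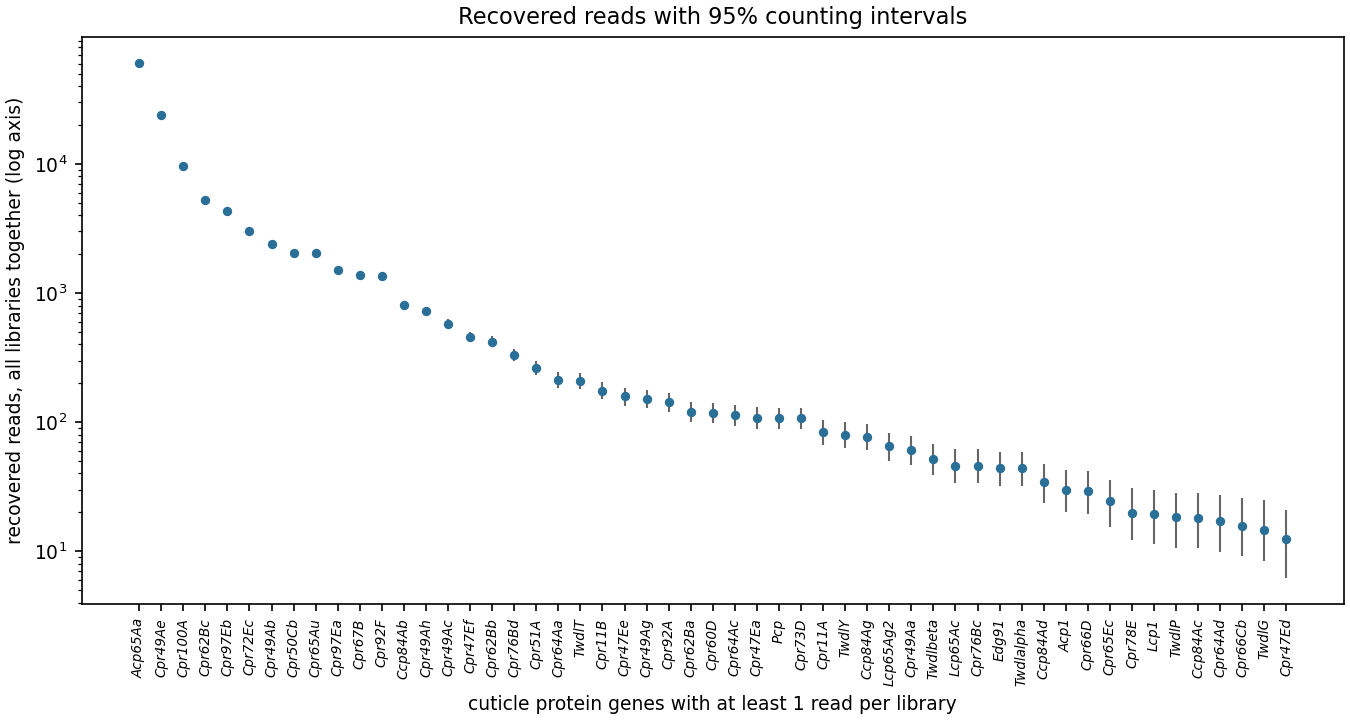
Recovered reads over all 12 libraries together (log axis) of the 53 cuticle protein genes with at least 1 read per library, in falling order, with 95% counting intervals (exact Poisson). Values run from Acp65Aa at 60617 reads to Cpr47Ed at 12.3, and the intervals of neighbours overlap over most of the lower part.

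Lcp genes encode larval cuticle proteins, of which Lcp1 to Lcp4 were described from the last larval stage. Their level in the adult pool was low. All 15 Lcp genes together gave 12.3 reads per library, or 0.119% of the cuticle reads. The highest was Lcp65Ag2 with 5.42 reads per library (2.14 log2 CPM), followed by Lcp65Ac with 3.83 and Lcp1 with 1.61. The other 12 had under 1 read per library, among them Lcp2 and Lcp4 with 3 reads each over all libraries and Lcp3 with 1 read. Lcp65Ab1, Lcp65Ab2 and Lcp65Af had none.

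Genes with pupal or ecdysone-related names were also low. Pcp, the pupal cuticle protein gene that lies within an intron of Gart, was at 2.70 log2 CPM with 8.95 reads per library. Its reads are uncertain wherever exons of the 2 genes overlap, which was not examined. Edg91, Edg78E and Edg84A belong to a set of genes found by their dependence on the moulting hormone ecdysone. Edg91 had 3.68 reads per library, Edg78E 0.644, and Edg84A had 1 read over all libraries.

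The Ccp84A genes form a tight group on chromosome arm 3R, and 1 of the 7 dominated. Ccp84Ab had 67.4 reads per library (5.37 log2 CPM), against 6.43 for Ccp84Ag, 2.86 for Ccp84Ad and 1.502 for Ccp84Ac. Ccp84Aa had 0.914 reads per library, Ccp84Af had 1 read over all libraries, and Ccp84Ae had none.

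Twdl genes encode Tweedle proteins, a separate family that lacks the Rebers-Riddiford domain. Mutations of some members alter body shape. In these flies 19 of the 25 Twdl genes had under 1 read per library, and 11 of these had no read at all. TwdlT was the highest at 3.53 log2 CPM with 17.4 reads per library, followed by TwdlY with 6.66, Twdlbeta with 4.35 and Twdlalpha with 3.66. TwdlP and TwdlG had 1.53 and 1.21 reads per library. TwdlD had 1 read over all 12 libraries. The genes with no read were TwdlB, TwdlC, TwdlE, TwdlH, TwdlM, TwdlN, TwdlO, TwdlQ, TwdlR, TwdlS and TwdlZ.

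For the lowest genes with a read, the value shows in how many libraries the reads lay. All 6 genes with 2 reads had them in 2 different libraries, namely Cpr30F, Cpr65Aw, Cpr65Az, Cpr67Fa2, Lcp65Ae and Lcp65Ag3. Of the 5 genes with 3 reads, TwdlF and TwdlW had them in 3 libraries, and Lcp2, Lcp4 and Lcp65Ag1 in 2. None of these 11 genes had all its reads in a single library, and which group the libraries belong to is not recorded in the value. The same split is not given here for all genes with 2 or 3 reads, so it is not read as a trait of cuticle genes.

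Many cuticle genes lie next to each other. By the gene order of release 6 of the annotation, 92 of the 123 members fall into 16 groups of at least 3, with no more than 5 protein-coding genes between neighbours. In each of the 16 groups 1 gene gave more than 50% of the reads, with shares from 59.2% (Edg78E in its group of 4) upwards. Since the highest gene of each group was picked by these same reads, the intervals are a description and no test. The 95% exact binomial interval of the share lay above 50% in 12 groups. In the other 4, led by Cpr67Fb, Edg78E, TwdlG and TwdlP, the highest gene had 4.95 to 18.4 reads over all libraries and the interval reached below 50%.

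The largest of these groups holds 18 genes on 3L, from Lcp65Ag3 to Cpr65Az. Acp65Aa gave 96.6% of its reads and Cpr65Au came after it with 169.4 reads per library. Lcp65Ag2 and Lcp65Ac had 5.42 and 3.83 reads, and the other 14 genes had under 1 read per library, 6 of them none. On either side of Acp65Aa the nearest members were Lcp65Aa, with 1 read over all libraries, and Cpr65Ay, with none.

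In the group from Cpr49Aa to Cpr49Ah on 2R, 6 of 8 genes had at least 1 read per library. Cpr49Ae gave 85.8% of the reads, and Cpr49Ab, Cpr49Ac and Cpr49Ah were also among the higher members, while Cpr49Ad between Cpr49Ac and Cpr49Ae had no read. The group from Cpr62Ba to Cpr62Bc had reads for all 3 genes, with 434.3 per library for Cpr62Bc and 10.02 for Cpr62Ba. Cpr72Ec had 250.0 reads per library, whereas its neighbours Cpr72Ea and Cpr72Eb had 0.432 and 0.0801. Among the 7 genes from Cpr47Ea to Cpr47Eg, Cpr47Ef gave 60.8% of the reads, 4 genes had at least 1 read per library and Cpr47Eg had none. Cpr64Aa was the highest of the 4 Cpr64A genes at 3.54 log2 CPM, 3 of which had at least 1 read per library, and Cpr76Bd was the highest of the 4 Cpr76B genes at 4.13.

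In the small groups from Cpr67Fa1 to Cpr67Fb and from Cpr78Ca to Cpr78Cc no gene reached 1 read per library. The 13 Twdl genes from TwdlM to TwdlQ on 3R were also low. Only TwdlP reached 1 read per library, and 8 of the 13 had no read. By contrast TwdlT, which lies apart from them with 5 protein-coding genes between it and Cpr97Ea, was the highest of its family, in a group whose 3 genes were at 3.53, 6.24 and 7.74 log2 CPM.

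**Figure D4:**
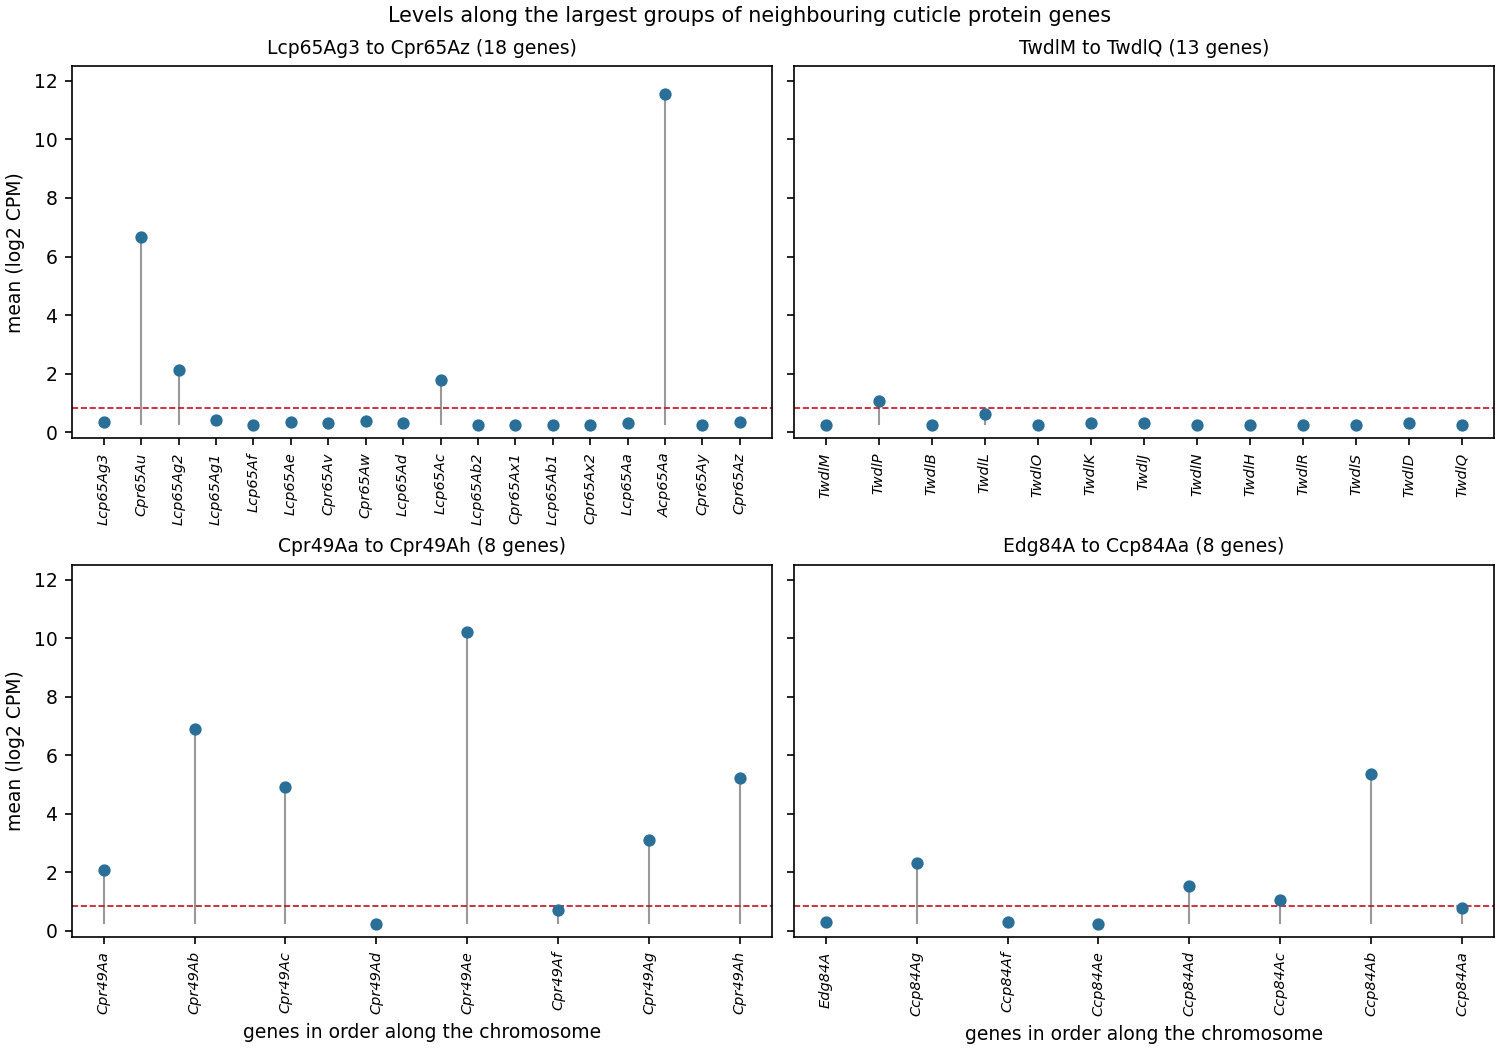
Mean level (log2 CPM) of each gene along the 4 largest groups of neighbouring cuticle protein genes, in their order on the chromosome, with a dashed line at 1 read per library. In the groups around Acp65Aa (11.55), Cpr49Ae (10.20) and Ccp84Ab (5.37) high genes stand beside genes near the lowest value, and the 13 Twdl genes lie between 0.25 and 1.07.

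By chromosome arm, 47 members lie on 3L, 33 on 3R, 27 on 2R, 8 on 2L and 8 on X. The share with at least 1 read per library was 55.6% on 2R, 40.4% on 3L, 39.4% on 3R, 25% on 2L and 50% on X. All members with at least 100 reads per library were on 3L, 3R or 2R. The highest on X was Cpr11B at 3.30 log2 CPM and the highest on 2L was Pcp at 2.70.

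The proteins vary in length, from 92 codons in Lcp9 to 1231 in Cpr76Bd, with a median of 191. Across the 123 genes the level was only weakly related to coding length (Pearson's r 0.16, Spearman's rho 0.19) and less so among the 53 with at least 1 read per library (r 0.06, rho 0.14). The number of exons was more closely related to level across the 123 genes (r 0.28, rho 0.36). Among the 53 these values were lower (r 0.11, rho 0.20). Genes are not independent replicates, and these values are a description. Of the 47 genes under 150 codons 16 had at least 1 read per library, as had 21 of the 44 from 150 to 250 codons and 16 of the 32 longer ones. The shortest class nevertheless held 70.9% of the cuticle reads, through Acp65Aa and Cpr49Ae.

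Some levels are uncertain because genes share sequence or position. Lcp65Ab1 and Lcp65Ab2, Cpr65Ax1 and Cpr65Ax2, Cpr67Fa1 and Cpr67Fa2, and the 3 Lcp65Ag genes are numbered copies with the same coding length within each set. How reads that match several copies were treated is not given in the sources used here. The first 2 pairs were at 0 throughout, as was Cpr67Fa1, while Cpr67Fa2 had 2 reads over all libraries. If reads that match several copies were dropped, the limit of 0.148 CPM does not hold for the copies at 0. The levels of the other copies may then be too low. The Lcp65Ag copies differed, with 65.1 reads over all libraries for Lcp65Ag2 and 2 or 3 for the others. By whole gene spans, introns included, 22 members overlap another gene in release 6. Among them are Cpr65Au, Cpr51A and Cpr64Aa of the 20 highest. Overlap of exons was not examined, and reads where exons overlap may have been counted as ambiguous.

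A further list held genes that make, assemble or bind chitin, the chitinase genes Cht5 and Cht7, and resilin, whose product is a rubber-like elastic protein of the cuticle. Of these 12 genes, 11 had at least 1 read per library, with a median of 4.95 log2 CPM. The chitin synthase gene kkv had 43.6 reads per library, the chitin deacetylase gene serp 143.5, and Gasp and obst-A, which encode chitin-binding proteins, 107.6 and 124.4. Cht5 was at 5.15 log2 CPM and Cht7 at 3.71. The exception was resilin with 0.922 reads per library.

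All 10 genes listed for hardening and colour had at least 1 read per library, with a median of 5.04 log2 CPM. The tyrosine hydroxylase gene ple was at 6.72 log2 CPM, the dopa decarboxylase gene Ddc at 3.99 and laccase2, whose oxidase cross-links cuticle proteins, at 4.23. The highest gene in these 2 lists was Dat, a dopamine acetyltransferase gene, with 207.4 reads per library. Acp65Aa, Cpr49Ae, Cpr100A, Cpr62Bc, Cpr97Eb and Cpr72Ec were each above Dat, and all other cuticle genes were below it.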

How the data were processed

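RNA of 4 Ub6-GG, 4 Ub6-Stop and 4 Control samples (250 ng each) was measured. The authors demultiplexed 3′ end reads with CASAVA 1.8.2, aligned them to dm3 with STAR, tabulated them per gene and compared the groups in edgeR. The authors deposited 2 tables of 16997 rows, with the mean log2 CPM over all libraries, identical in both, and the log2 fold changes, likelihood ratios, p-values and FDR of their own comparisons with control, which were not used. No column (0) gives a value of a single sample, so no test was run. The 2 rows that name no gene (14.2% of reads) were left out; the deposited scaling includes them.

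Reads per library were recovered from the deposited log2 CPM as the prior count of 2 times the ratio to the lowest value, less 1. Library sizes and a dispersion of 0.146 were solved from the 12 levels of genes with 1 read. All 382 genes with 2 reads then fell on a predicted level, to within 2e-06 log2. All reads summed to 100.6% of the average library. That sum follows largely from how CPM is scaled, so it does not test the prior count. The recovery was tested on simulated data. Because the mean is weighted by the dispersion, recovered reads of higher genes are approximate, as are their counting intervals.

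Symbols matched release 6 of the annotation for all 123 members. Release 6 differs from dm3, so no coordinates are given. Python 3.11.15, numpy 2.4.6, pandas 2.3.3 and scipy 1.17.1 were used. Every member could be named, with values for the 30 highest, the 3 highest and the lowest of each family, families of 8 or fewer, and listed genes of chitin, hardening and marker lists. Other members given with a value were chosen after their values were seen. Members and lists were chosen with earlier results of these data known. Alternatives were the minimum of reads, the prior count, the other table, matching on synonyms and the genes ranked against.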

Additional observations from a re-analysis of the deposited data

How the results depend on the processing

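The column of the other table is identical, so reading it could change neither the counts nor the median level and is no check of them. Matching on synonyms, run for the median level only, left it at 0.61 log2 CPM. The 53 members with at least 1 read per library became 41 at a minimum of 3 reads, 26 at a minimum of 10, and 45 with a prior count of 1, under which 1 read would come out as 0.506 reads, against 1.01 with 2. Counting only members with at least 3 reads over all libraries left 75 of 96 as seen. The median level was 2.81 log2 CPM over the members with at least 1 read per library, against 0.61 over all 123. The median percentile of the members, 24.1 among all genes, was 21.3 among genes above the lowest value and 15.3 among protein-coding genes, a ranking added after the data were seen. With the prior count left in, the 10 highest members held 90.7% of the cuticle reads, against 92.7%.

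No paired analysis was possible because the tables hold 1 pooled mean per gene, and for the same reason the planned fits without a replicate were not run. Order among genes under about 10 reads per library is limited by depth, and no level carries an error between samples.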
